A study of Mus musculus with 2 samples.

Results

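The MHC class II genes were followed across 2 sections of mouse cerebellum that carried tumors grown from mammary tumor organoids. The members are *Cd74*, *H2-Aa*, *H2-Ab1*, *H2-Eb1*, *H2-DMa*, *H2-DMb1* and *Ciita*, which were chosen by name and make up 7 of the 19465 genes in both count matrices. All 7 passed the filter on low counts. Both sections belong to 1 group, labeled HP and untreated, in which the organoids carry a human HER2 transgene with V777L together with PIK3CA H1047R. According to the methods, the HER2 transgene has an actin promoter and was switched on by a Cre adenovirus in the mammary gland of the donor, the organoid cells were selected for stable luciferase clones, and small clusters were placed by stereotaxis in the cerebellum of syngeneic C57BL/6 hosts with their own immune cells. The stereotaxic coordinates are given for 5-month-old mice. Section 1 is replicate 1, titled HP-F1, and section 2 is replicate 2, titled HP-B6. The cell line tag is the same B6-HP for both, and what F1 and B6 stand for in the titles is not given in the sources used here, so a different host or clone for section 1 was not tested and cannot be told apart from the section. Both sections are 5 µm thick and fixed in formalin, and no cerebellum without a tumor was analysed here.

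MHC class II molecules present peptides from endosomes to CD4+ T cells. An alpha and a beta chain pair in the endoplasmic reticulum with the invariant chain, encoded by *Cd74*, which guides them to endosomes. There lysosomal proteases cut the invariant chain down to a fragment, and the DM heterodimer exchanges that fragment for antigen peptides. *H2-Aa* and *H2-Ab1* encode the chains of I-A, *H2-Eb1* encodes the beta chain of I-E, and *H2-DMa* and *H2-DMb1* encode the chains of DM. C57BL/6 mice have no functional I-E alpha chain. *Ciita* encodes the coactivator that sets class II transcription, and interferon gamma induces it in many cells. Dendritic cells, B cells and activated macrophages are the main carriers of class II, whereas resting microglia carry little.

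The promoters of class II genes share the X and Y boxes to which CIITA is recruited through RFX, CREB and NF-Y, so 3 member promoters are shown with these letters. The annotation used is GRCm38.p6, which has the coordinates of the submitters' mm10 build. It places *H2-Aa* at chr17:34282744-34287823, *H2-Ab1* at chr17:34263227-34269418, *H2-Eb1* at chr17:34305867-34316674, *H2-DMa* at chr17:34119693-34139101, *H2-DMb1* at chr17:34153191-34160229 and *Ciita* at chr16:10480014-10531064. Promoter windows from RefSeq were used for 4 of the 7 members (*H2-Aa*, *H2-Eb1*, *H2-DMa* and *H2-DMb1*). The stretches below run from 160 to 31 bases before the annotated start, 5′ to 3′ on the strand of the gene, and capitals mark, on the strand shown, a Y box (CTGATTGG, or its core ATTGG) or, in *H2-DMb1*, a match to the X box. They lie at chr17:34287854-34287983 on the minus strand for *H2-Aa*, chr17:34305707-34305836 on the plus strand for *H2-Eb1* and chr17:34153031-34153160 on the plus strand for *H2-DMb1*.
H2-Aa: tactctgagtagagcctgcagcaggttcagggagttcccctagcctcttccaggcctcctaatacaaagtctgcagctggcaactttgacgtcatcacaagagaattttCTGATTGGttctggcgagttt
H2-Eb1: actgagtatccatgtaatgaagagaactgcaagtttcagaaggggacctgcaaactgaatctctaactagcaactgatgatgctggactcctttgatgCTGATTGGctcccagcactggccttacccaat
H2-DMb1: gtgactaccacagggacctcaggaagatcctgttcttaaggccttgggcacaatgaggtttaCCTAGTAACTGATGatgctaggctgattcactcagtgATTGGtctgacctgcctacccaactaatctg

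The longer Y box started at -51 in *H2-Aa* and -62 in *H2-Eb1*, counted from the annotated start. *H2-Eb1* also had the core on the other strand at -35, inside the stretch shown and left in lower case. *H2-DMb1* held the core alone, at -61, and an X box match at -98. Searched on both strands, the longer Y box was found in 4.1% of the 32851 promoter windows of this length, its core, which the longer form contains, in 37.4%, and the X box in 1.16%. For *H2-DMa* 2 promoter windows were searched, and the second had the core at -198 from its own start. Neither window lies at the outer start of the *H2-DMa* interval given above. These matches describe letters in a window and were not tested as binding sites.

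Each section was read with the Visium CytAssist assay, in which probe pairs that bind mouse transcripts are taken up by spots with known barcodes and positions, and molecules are counted by unique molecular identifiers (UMIs). A spot is a small area of tissue that can hold several cells, so in these data fewer cells of a type and less RNA per cell cannot be told apart. Section 1 held 63986887 UMIs over 3406 spots and section 2 held 71878333 UMIs over 4017 spots. The sections share 3096 spot barcodes, which are positions of the array and not cells. Spots were divided by the level of 22 neural markers in a spot and its neighbors, with no class II gene in the score. The side low in neural markers was taken as tumor, and spots within 3 array steps of the border formed the inner edge on the tumor side and the outer edge on the neural side. In section 1 the tumor held 760 spots, the inner edge 318, the outer edge 393 and the neural tissue 1798. In section 2 they held 829, 227, 243 and 2575. Levels are counts per 1000000 UMIs (CPM) over all spots of a region, and are compared between places for 1 gene and not between genes, whose probes can capture differently.

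The sections stood far apart on the tumor side, and this touches each result that follows. The 7 epithelial markers summed to 42.5 CPM in the tumor region of section 1 and 9000 in that of section 2, so the tumor region of section 1 is named here by its low neural score and not by epithelial markers. The 6 fibroblast markers went the other way, with 54452 and 522 CPM. Whether the tumor regions of the 2 sections are the same kind of tissue was not tested. Immune lists were also unequal in the tumor region: the 10 macrophage markers summed to 4376 CPM in section 1 and 1247 in section 2, the 8 T cell markers to 309 and 16.3, the 8 B cell markers to 92.9 and 13, the 6 plasma cell markers to 929.6 and 70.7 and the 10 dendritic markers to 553 and 695. Most of the dendritic sum was *Fscn1*, at 402 and 647 CPM. Each of the other dendritic markers was higher in section 1, among them *Itgax* (45.1 and 16.6), *Ccr7* (35.0 and 6.52) and *Clec10a* (20.9 and 1.8). Every marker of these 5 immune lists had UMIs in the tumor region of both sections, except *Fcer2a* of the B cell list in section 2. Their part in the class II values was not tested. With 1 mouse a section, no test of the difference between sections was possible, so the levels of the members are given by section.

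Class II transcripts filled the tumor region of section 1 and were sparse in that of section 2. The 7 members together reached 23563 CPM in the tumor region of section 1, against 4439 in the inner edge, 1515 in the outer edge and 319 in the neural tissue. In section 2 the same regions held 465, 696, 702 and 147 CPM. The order from tumor to neural tissue was thus strict in section 1, whereas in section 2 both edges lay above the tumor. With only the largest connected tumor-side group of spots kept, section 2 held 472, 610, 505 and 186 CPM. Its edges then still lay above the tumor, the outer edge by less than the inner. Neural tissue was lowest in both sections. The tumor region supplied 96.8% of the class II UMIs of section 1 from 61.9% of its UMIs, and 61.0% of those of section 2 from 48.1%.

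**Figure D1:**
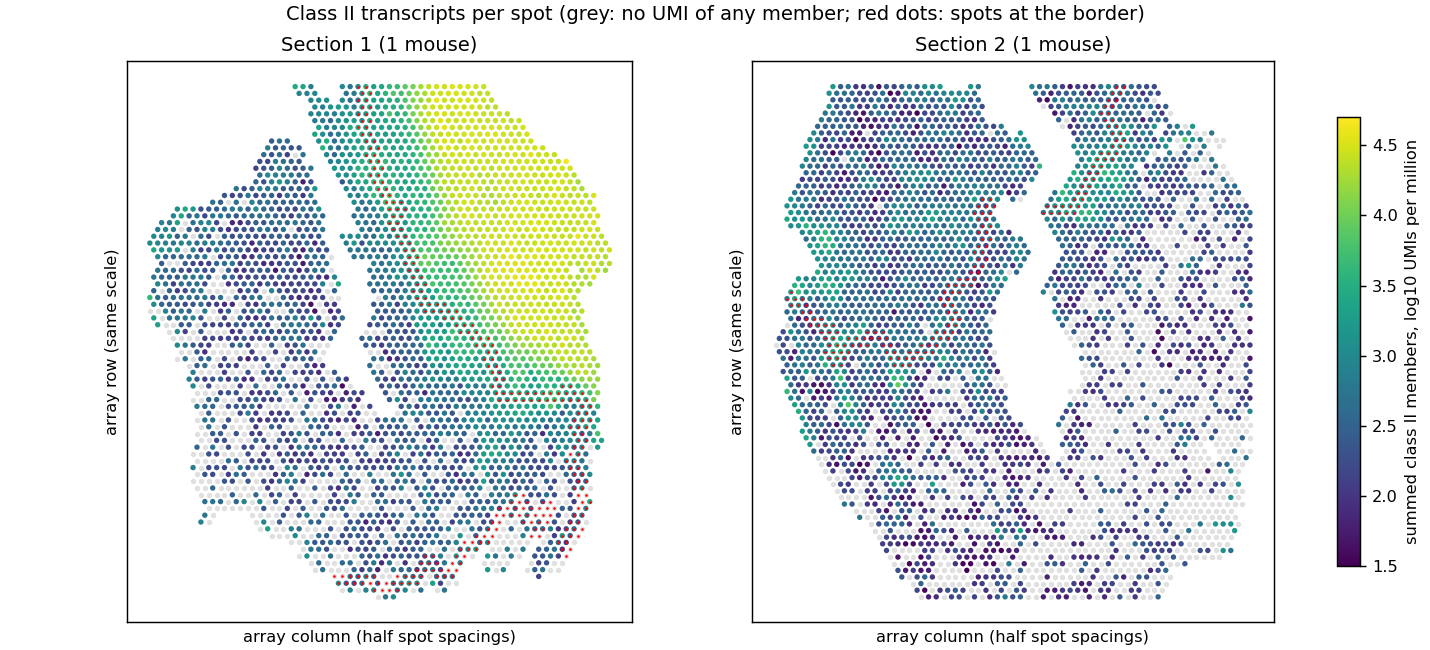
Each dot is a spot at its place on the array, colored by the summed level of the 7 class II members (log10 of CPM), with spots that had no member UMI in grey and spots next to the border between tumor and neural sides marked in red. In section 1 the mass at the upper right is high, with levels that climb from its border inward, and in section 2 the tumor side at the upper left lies at levels also seen along the border.

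*Cd74*, the invariant chain, had 12971 CPM in the tumor region of section 1, 2334 in the inner edge, 752 in the outer edge and 147 in the neural tissue. In section 2 the values were 272, 389.9, 373 and 62.7. The tumor region thus exceeded neural tissue 88.1-fold in section 1 and 4.34-fold in section 2, and the inner edge held 0.18 and 1.43 times the tumor level. The classical chains had the same order in section 1, and in section 2 had the outer edge slightly over the inner edge where *Cd74* had the reverse. *H2-Aa* had 5694, 965, 333 and 61.4 CPM from tumor to neural tissue in section 1 and 69.4, 92.2, 106 and 19.2 in section 2. *H2-Ab1* had 2772, 627, 210.3 and 45.8 CPM in section 1 and 48.6, 84.4, 90.3 and 15.4 in section 2. *H2-Eb1*, whose protein partner C57BL/6 mice lack, had 1373, 258, 98.4 and 22.2 CPM in section 1 and 30.2, 58.7, 59.5 and 11.7 in section 2. For each of these 4 genes the lowest library was the neural tissue of section 2 and the highest the tumor region of section 1. The order of the edges in section 2 depended on its smaller tumor-side group. With only the largest group kept, the inner edge was over the outer edge for *Cd74* (339 and 262 CPM) and *H2-Aa* (78.2 and 76.6). The same held for *H2-Ab1* (74.7 and 61.7) and *H2-Eb1* (46.8 and 37.7). *Cd74* in the outer edge was then under the tumor (276 CPM).

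The DM chains and the coactivator had a narrower range, and their neural levels lay near each other in both sections. *H2-DMa* had 373, 131, 60.7 and 26.4 CPM from tumor to neural tissue in section 1, and 26.9, 38.0, 41.3 and 24.7 in section 2. Its tumor region in section 2 therefore lay 1.09-fold over neural tissue, against 14.1-fold in section 1. *H2-DMb1* had 282, 88.8, 42.0 and 11 CPM in section 1 and 12.6, 25.1, 21.5 and 9.1 in section 2. Its UMIs could be split with those of its close relative *H2-DMb2*, which had 67.1, 40.2, 18.5 and 3.03 CPM in section 1 and 7.52, 14.7, 14.9 and 3.25 in section 2. *Ciita* had 98.0, 34.7, 18.5 and 5.06 CPM in section 1 and 4.6, 7.97, 10.5 and 3.89 in section 2. In section 2 its tumor region (95% Poisson interval 3.91 to 5.38 CPM) overlapped neural tissue (3.19 to 4.69), an interval that covers counting error alone.

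**Figure D2:**
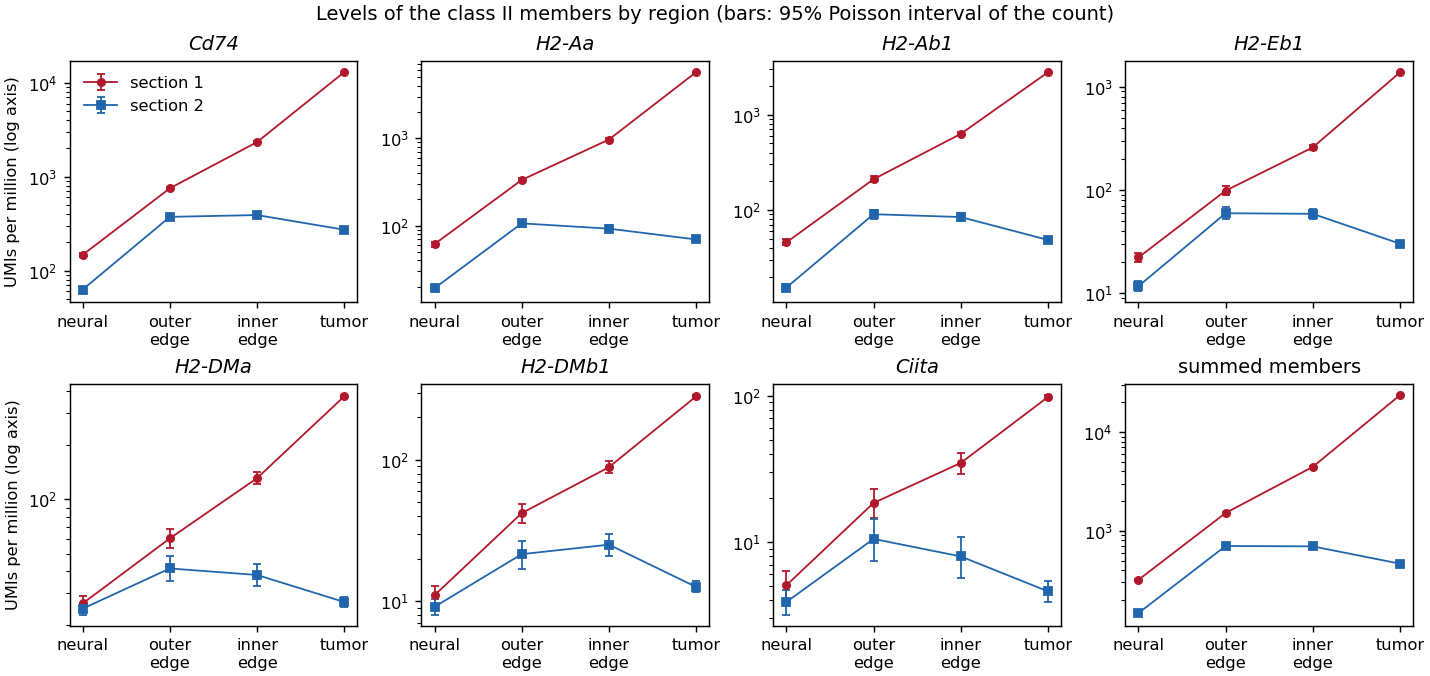
Each panel plots 1 member, or their sum, in CPM on a log axis for the 4 regions, with section 1 in red, section 2 in blue and bars for the 95% Poisson interval of the count. Section 1 climbs from neural tissue to tumor in every panel, and section 2 peaks at an edge, with the sum at 702 and 696 in the edges and 465 in the tumor.

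The gap between sections was widest in the regions called tumor, which may not be the same kind of tissue. In the tumor region section 1 held 50.7 times the summed level of section 2, from 13.8 times for *H2-DMa* and 21.3 for *Ciita* to 47.6 for *Cd74* and 82.1 for *H2-Aa*. The ratio of the sums was 6.38 in the inner edge, 2.16 in the outer edge and 2.18 in the neural tissue. Across the same 4 regions the ratio of the macrophage list was 3.51, 1.83, 0.941 and 0.732, and that of the T cell list 19.0, 7.12, 2.87 and 0.982. Set against the macrophage list, class II UMIs came to 5.38 per macrophage-marker UMI in the tumor of section 1, 0.887 in its inner edge, 0.584 in its outer edge and 0.509 in its neural tissue. In section 2 these were 0.373, 0.254, 0.255 and 0.171. The tumor of each section had the highest ratio, and with *Lyz2* and *C1qa* left out of the list the values of section 1 became 11.8, 1.81, 1.51 and 1.45.

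The design asks how the regions of a section differ, and the 8 libraries (2 sections of 4 regions) were compared over 19031 genes in edgeR (quasi-likelihood), the section being a block. Tumor against neural tissue, 14.5% of all genes were called higher and 16.4% lower at a Benjamini-Hochberg adjusted p below 0.05. Of the 7 members, 3 were called higher and 0 lower, and the median log2 fold change of the members was 4.72 against -0.06 for all genes. *Cd74* was higher by a log2 fold change of 5.24 (SE 1.40, adjusted p = 0.039, edgeR), *H2-Aa* by 5.16 (SE 1.46, adjusted p = 0.047, edgeR) and *H2-Ab1* by 4.74 (SE 1.36, adjusted p = 0.049, edgeR). These calls lie close to the threshold, and section 2 alone gave 2.33, 2.04 and 1.85 where section 1 gave 6.68, 6.75 and 6.13. *H2-Eb1* had 4.72 with an adjusted p of 0.056, *H2-DMb1* 3.29 with 0.084, *Ciita* 2.92 with 0.11 and *H2-DMa* 2.56 with 0.12 (edgeR). All 7 had a positive value in both sections. Without the section as a block 0 of the 7 were called. DESeq2 called 7, with 3932 of all genes called higher against 2754 by edgeR. Without the 10% of spots highest in B, plasma and T cell markers only *Cd74* was called (adjusted p = 0.043, edgeR).

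Edge against neural tissue, 6.02% of genes were called higher and 10.1% lower. Of the members, 0 of 7 were called by edgeR and 1 had an unadjusted p below 0.05. DESeq2 called 4 of them, with 1847 of all genes called higher against 1145 by edgeR. The log2 fold changes ran from 1.04 for *H2-DMa* to 2.80 for *Cd74*, with adjusted p of 0.47 and 0.17 (edgeR). Over both edges together, section 1 and section 2 gave 2.88 and 2.67 for *Cd74*, 2.91 and 2.41 for *H2-Aa*, 2.69 and 2.54 for *H2-Ab1* and 2.53 and 2.37 for *H2-Eb1*. They lay further apart for *H2-DMa* (1.45 and 0.75), *H2-DMb1* (2.13 and 1.38) and *Ciita* (1.93 and 1.21). The inner edge alone was 15.8-fold over neural tissue for *Cd74* in section 1 and 6.22-fold in section 2, and the outer edge 5.11-fold and 5.96-fold. The standard errors were 0.81 to 1.15.

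Tumor against edge, 2.81% of genes were called higher and 7.56% lower. Here 0 of the 7 members were called by edgeR and 0 had an unadjusted p below 0.05. DESeq2 called 4 of them, with 2040 of all genes called higher against 534 by edgeR. The sections had opposite signs for all 7 members. *Cd74* was at 3.80 in section 1 and -0.34 in section 2, *H2-Eb1* at 3.61 and -0.81 and *Ciita* at 2.43 and -0.79, so that the joint estimates of 1.35 to 2.50 describe neither section. Inner against outer edge, 0.0% of genes were called in either direction, 0 of the members were called by edgeR or DESeq2 and 0 had an unadjusted p below 0.05. The joint values ran from 0.35 to 0.79, with adjusted p of 0.83 to 0.94 (edgeR), and section 1 gave 1.06 to 1.80 against -0.25 to 0.35 in section 2.

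**Figure D3:**
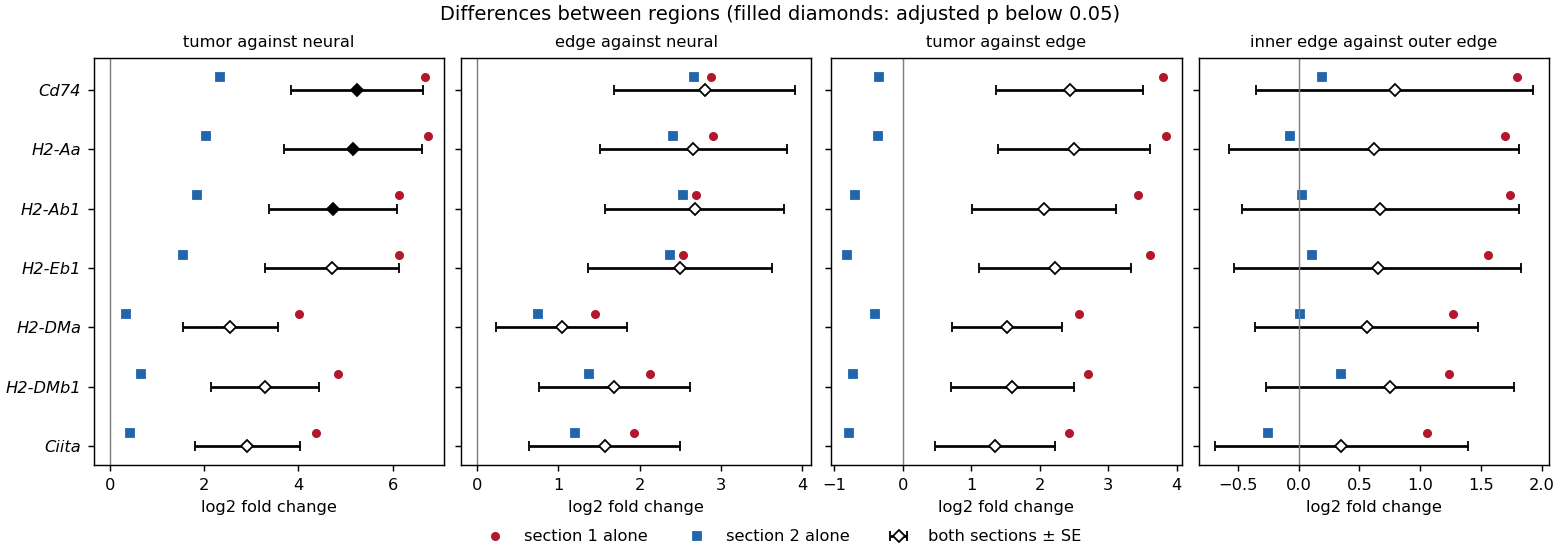
Each panel shows 1 comparison of regions, with the log2 fold change of each member over both sections as a diamond with its standard error (filled where the adjusted p was below 0.05) and the value of each section alone above it. Only 3 diamonds are filled, all for tumor against neural tissue, and the sections lie on opposite sides of 0 for every member in tumor against edge.

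Distance from the border separated class II from *Arg1*, which encodes arginase, in section 1. The summed members stood at 322 CPM 31 to 60 array steps into neural tissue, 199 at 16 to 30 steps, 649 at 4 to 6 steps, 1515 at 1 to 3 steps, 4439 at 1 to 3 steps inside the tumor and 10782 at 4 to 6. Deeper inside they leveled at 22076 (7 to 9 steps), 28929 (10 to 15) and 28488 (16 to 30). *Arg1* in section 1 was highest at 1 to 3 steps inside, with 925 CPM, and had 434 CPM at 4 to 6 steps, 14.0 at 10 to 15 and 5.93 at 16 to 30. Class II was thus highest where *Arg1* was low. From the border inward over these 5 bands the macrophage list had 5004, 4316, 4513, 4480 and 4128 CPM. The T cell list had 172, 194, 338, 363 and 299.8 CPM and the fibroblast list 17162, 52072, 58234, 53631 and 54029, so both were lowest at the border as class II was, and their part in the class II values was not tested. In section 2 the summed members were highest in the bands at the border, with 696 CPM at 1 to 3 steps inside and 702 at 1 to 3 steps outside, and had 546, 579.9, 508 and 300.4 going inward and 445, 274, 135, 89.4 and 65.3 going outward. Single steps showed a second rise that the bands average away. The summed members had 752 CPM at 10 steps inside (49 spots, 95% Poisson interval 714 to 791), beside 799.7 at 2 steps inside. *Arg1* in section 2 had 1198 CPM at 1 to 3 steps inside and 665 in the innermost band, and the macrophage list had 2740 and 2756 CPM in the bands inside and outside the border and 1131 in the innermost. The innermost band hides a few spots at its deepest end. At 29, 28 and 27 steps inside, with 2, 5 and 7 spots, the summed members had 1335 (95% Poisson interval 846 to 2003), 509 and 389 CPM, *Arg1* 4064, 6096 and 4098 and the macrophage list 3483, 4363 and 3900, so that the highest single step of each in section 2 lay among these few spots.

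The members did not all follow the sum with distance. In section 1 *Cd74* had 5967, 11999, 15963 and 15750 CPM at 4 to 6, 7 to 9, 10 to 15 and 16 to 30 steps inside the tumor, and *H2-Aa* had 2376, 5175, 6975 and 7285. *H2-DMa* had 237, 422, 458 and 313 CPM over the same bands and *Ciita* 54.0, 109, 126 and 84.0, so that both were lower in the innermost band than in the one before it. *H2-Ab1* (3443 and then 2951 CPM) and *H2-DMb1* (334 and 271) were lower there too. *H2-Aa* and *H2-Eb1* (1630 and then 1834 CPM) were higher, so the fall was not confined to the DM chain and the coactivator. In section 2 *H2-DMa* spread widest into the neural side, with 41.3 CPM at 1 to 3 steps outside, 41.5 at 4 to 6 and 35.5 at 7 to 9, where *Cd74* had 373, 228 and 134. *H2-Eb1* in section 2 had 58.7 and 59.5 CPM on the inside and outside of the border and 22.1 in the innermost band.

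**Figure D4:**
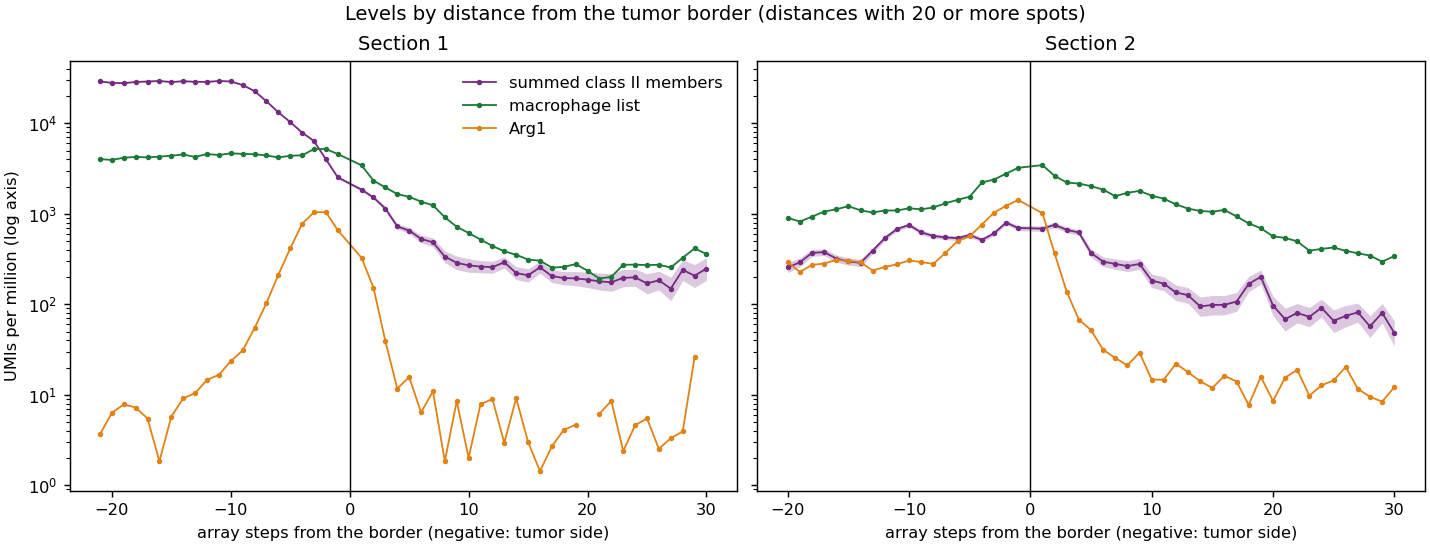
The summed class II members (purple, with the 95% Poisson interval), the macrophage list (green) and *Arg1* (orange) are plotted in CPM on a log axis against the distance from the border in array steps, negative on the tumor side, for steps that hold at least 20 spots. In section 1 class II keeps climbing to a plateau of 28488 to 28929 while *Arg1* peaks just inside the border, and in section 2, among the steps plotted, class II and the macrophage list are both highest near the border. Class II in section 2 also rises to 752 at 10 steps inside.

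The make-up of the class II signal also differed between regions and sections. For every 100 *Cd74* UMIs there were 43.9 of *H2-Aa* in the tumor of section 1, 41.4 in the inner edge, 44.3 in the outer edge and 41.7 in the neural tissue. In section 2 there were 25.5, 23.6, 28.3 and 30.7, so that the ranges of the sections did not overlap. *H2-DMa* differed more between regions, with 2.87, 5.62, 8.07 and 17.9 per 100 *Cd74* UMIs from tumor to neural tissue in section 1 and 9.9, 9.75, 11.1 and 39.4 in section 2. *Ciita* had 0.755, 1.49, 2.45 and 3.43 per 100 in section 1 and 1.69, 2.05, 2.80 and 6.21 in section 2. The DM chain and the coactivator thus stood highest against *Cd74* where class II was lowest. As a percentage of all member UMIs, *Cd74* made up 55.0% in the tumor of section 1 (95% exact binomial interval 54.9 to 55.1) and 58.6% in that of section 2 (57.8 to 59.4).

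Within single spots Pearson's r between the members was highest in the tumor of section 1, but by rank its inner edge was as high. Over its 760 spots, which share 1 library and differ in depth, *Cd74* had a Pearson's r of 0.96 with *H2-Aa*, 0.95 with *H2-Ab1*, 0.92 with *H2-Eb1*, 0.68 with *H2-DMb1*, 0.66 with *H2-DMa* and 0.48 with *Ciita*, on log2(CPM + 100). Over the 829 tumor spots of section 2 the values were 0.69, 0.59, 0.62, 0.23, 0.33 and 0.14. The mean r among *Cd74* and the 3 classical chains went from 0.94 in the tumor to 0.74, 0.64 and 0.25 in the inner edge, outer edge and neural tissue of section 1, and was 0.62, 0.48, 0.55 and 0.38 in section 2. By Spearman's rank correlation this mean was 0.77, 0.76, 0.65 and 0.22 in section 1, so the tumor did not stand apart from the inner edge. In section 2 it was 0.52, 0.41, 0.49 and 0.28. Sparse counts lower r. With spots thinned to 5000 UMIs the mean Pearson's r over the same regions was 0.80, 0.51, 0.46 and 0.18 in section 1. In section 2 it was 0.28, 0.34, 0.35 and 0.30, so the tumor of section 2 was no longer highest at equal depth. Because sparse counts lower r, *Ciita* cannot be ranked beside the chains by its r.

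The marker lists with which class II varied changed from place to place. In section 1 the summed members had an r with the macrophage list of 0.54 in tumor spots, 0.74 in the inner edge, 0.76 in the outer edge and 0.45 in neural tissue. In section 2 these were 0.46, 0.19, 0.33 and 0.46. Other lists lay near the macrophage list at the edges. Over the same regions the fibroblast list had 0.48, 0.76, 0.62 and 0.36 in section 1 and 0.36, 0.18, 0.17 and 0.22 in section 2. The microglia list had 0.18, 0.69, 0.70 and 0.33 in section 1 and 0.43, 0.22, 0.33 and 0.36 in section 2. With the T cell list the tumor values were 0.60 in section 1 and 0.16 in section 2, with the B cell list 0.38 and 0.06, with the plasma cell list 0.49 and 0.30 and with the choroid plexus list 0.60 and 0.17. At 5000 UMIs per spot these became 0.31 and 0.03 for T cells, 0.21 in section 1 for B cells, 0.45 and 0.18 for plasma cells and 0.25 and 0.05 for choroid plexus. The choroid plexus markers did not go together. Only 1 of the 5 had a positive log2 fold change in tumor against neural tissue, *Aqp1* at 4.56, with *Ttr* at -5.86. Over all spots of section 1 *Aqp1* had an r of 0.84 with the summed members and *Ttr* -0.03. The relation with *Arg1* had opposite signs within section 1, at -0.63 in the tumor and 0.64 and 0.55 in the inner and outer edge, and stayed between -0.12 and 0.18 in section 2. At 5000 UMIs per spot *Arg1* in section 1 was at -0.70 in the tumor, 0.20 in the inner edge and 0.44 in the outer edge. The macrophage list in section 1 was then at 0.14 in the tumor, 0.5 in the inner edge and 0.76 in the outer edge. The fibroblast list was at -0.01, 0.60 and 0.61 and the microglia list at -0.06, 0.39 and 0.67. Before thinning, the summed members of section 1 had an r with the total UMIs of a spot of 0.36, 0.77 and 0.62 in these regions.

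**Figure D5:**
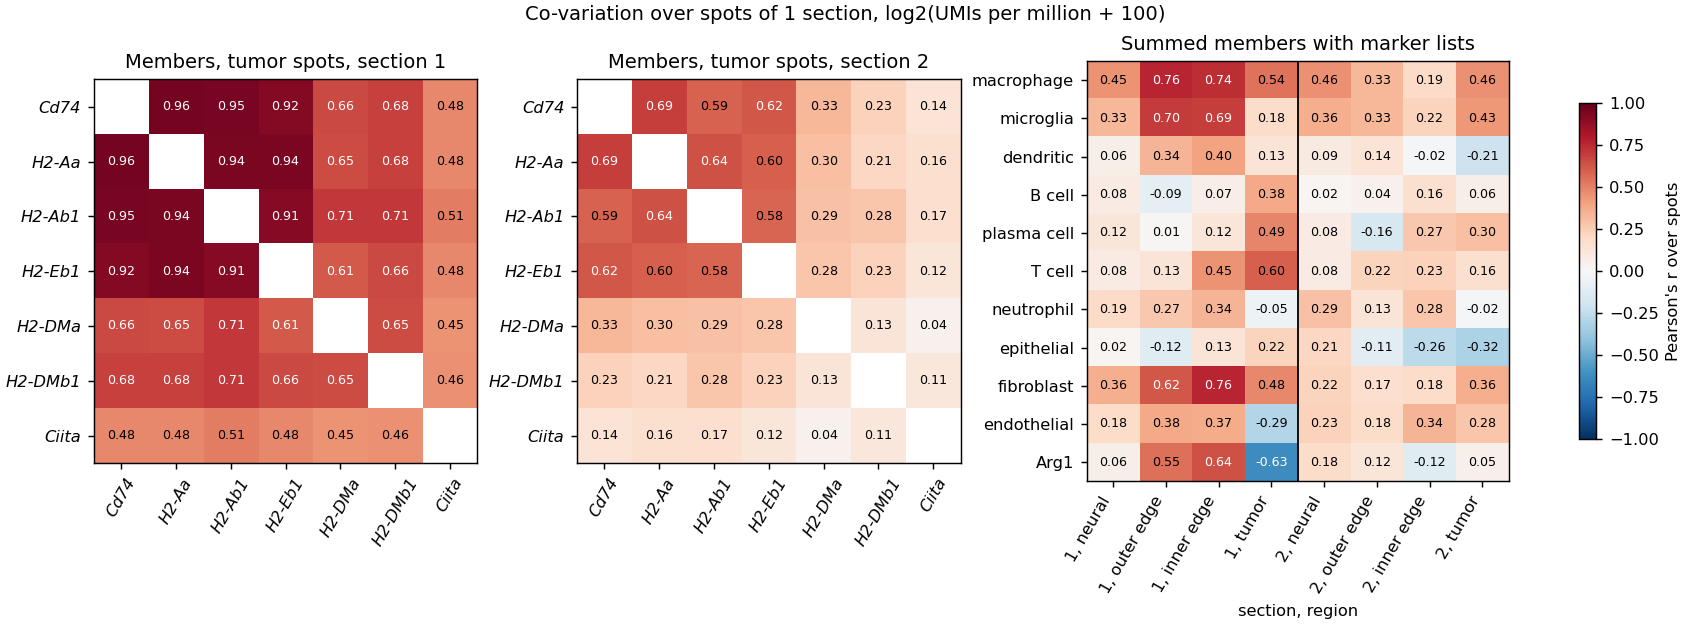
The left and middle panels give Pearson's r between members over the tumor spots of sections 1 and 2, and the right panel gives r between the summed members and marker lists or *Arg1* in each region of each section, all on log2(CPM + 100). The chains and *Cd74* form a block of 0.91 to 0.96 in section 1 and 0.58 to 0.69 in section 2, and *Arg1* runs from -0.63 in the tumor to 0.64 in the inner edge of section 1.

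At an equal depth of 5000 UMIs per spot, *Cd74* was found in 100% of 744 tumor spots of section 1 (exact interval 99.5 to 100) and 60.5% of 823 tumor spots of section 2 (57.1 to 63.9). In neural spots, a reference from the same slide that is not free of class II, the share was 43.5% and 18.4%. Before thinning the tumor shares were 99.2% and 96.9% and the neural shares 54.1% and 29.3%, with median depths of 54419.5 and 41372 UMIs in the tumor and 7838.5 and 9594 in neural tissue. *Ciita* was found in 39.7% of thinned tumor spots of section 1 (36.1 to 43.3) and 2.67% of those of section 2 (1.68 to 4.02), against 2.30% and 1.82% of neural spots. The interval of *Ciita* in the tumor of section 2 thus overlapped that of its neural spots (1.31 to 2.46), and these intervals cover counting error alone. Thinning left out 16 and 6 tumor spots and 404 and 319 neural spots that were shallower.

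Before thinning, the spread over spots was narrow in the tumor of section 1 and wide elsewhere. There the 10th percentile of the summed level was 5886 CPM, the median 26469 and the 90th percentile 31200, and the 10% of spots with the most class II UMIs held 19.0% of them with 14.4% of all UMIs. In the tumor of section 2 the same percentiles were 97.1, 336 and 999 CPM, and the top 10% held 36.5% of the class II UMIs with 11.5% of all UMIs. The 90th percentile of section 2 thus lay under the 10th percentile of section 1. In neural tissue the median was 215 CPM in section 1 and 64.0 in section 2, and the top 10% held 41.4% and 53.6%. Few counts per spot widen such a spread. The summed members had 1224 UMIs per tumor spot in section 1 and 19.0 in section 2, and 2.81 and 1.6 per neural spot. The part of counting error in the wider spreads was not tested.

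The spots with the most class II lay in different places. In section 1 the top 1% by summed level were 33 spots, all in the tumor region, at 33200 to 44714 CPM, and 25 of them touched another. Section 2 had 39 such spots, 11 in the tumor, 10 in the inner edge, 9 in the outer edge and 9 in neural tissue, at 2616 to 8815 CPM, of which 24 touched another. They held 10.6% of the class II UMIs of section 2 in 1.07% of its UMIs, and the sparsest of them rested on 2 member UMIs. Beside the remaining spots of their region, the highest spots of section 2 had more of the macrophage list in the tumor (3004 against 1223 CPM), the inner edge (3323 against 2725), the outer edge (3704 against 2722) and neural tissue (4214 against 849). The plasma cell list had 1115 against 56.8 CPM in the tumor and 733 against 39.2 in the inner edge, but 8.03 against 161 in the outer edge. The T cell list had 58.1 against 15.7 CPM in the tumor and 130.2 against 27.6 in neural tissue, and the fibroblast list 2249 against 498 in the tumor. The dendritic list of section 2 was lower in the highest tumor spots (489 against 698 CPM). It was higher in those of the inner edge (824 against 696), outer edge (667 against 552) and neural tissue (651 against 306). In the section 1 tumor the highest spots had less of the fibroblast (44430 against 55005 CPM) and plasma cell lists (812 against 936). They had more of the macrophage (4872 against 4349), T cell (369 against 306) and B cell lists (158 against 89.3). The highest spots were chosen by their class II level, so this is a description.

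The other genes of the pathway were taken from a list of 35 symbols, of which 30 were measured and tested. The list holds *March1* and *March8* under an old and a new symbol each. Tumor against neural tissue, their median log2 fold change was 1.05 against -0.06 for all genes. Of the 30, 8 were called higher and 0 lower, where 14.5% of all genes were called higher and 16.4% lower. Among the 8 were *H2-DMb2* (3.32, SE 0.89, adjusted p = 0.037, edgeR), the NF-Y subunit *Nfya* (2.02, SE 0.24, adjusted p = 5.8e-04, edgeR) and the interferon-induced factor *Irf1* (3.62, SE 0.41, adjusted p = 4.3e-04, edgeR). The others were both chains of the interferon gamma receptor (*Ifngr1*, 2.44, and *Ifngr2*, 1.18) and the co-stimulatory genes *Cd80* (3.65), *Cd86* (2.21) and *Cd40* (2.57). *Irf1* had 275 CPM in the tumor of section 1 and 128 in that of section 2, against 16.6 and 20.1 in neural tissue. *Nfya* had 52.4 and 79.3 CPM against 14.7 and 23.4, so that both genes were higher in the tumor of both sections. The other called genes were also higher in both, by more in section 1. Tumor over neural tissue, *H2-DMb2* was 22.1-fold in section 1 and 2.32-fold in section 2, and *Cd80* 19.8-fold and 4.41-fold. *Cd40* had 8.95 and 2.58, *Ifngr1* 8.5 and 2.03, *Cd86* 8.43 and 1.55 and *Ifngr2* 2.36 and 1.56. The RFX genes, whose products bind the X box, were not called, with *Rfx5* at 0.27, *Rfxap* at -0.29 and *Rfxank* at -0.33.

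*Ifng*, which encodes interferon gamma, was at 4.10 CPM in the tumor of section 1 and 0.236 in that of section 2, and *Cd4* at 32.7 and 2.01. The *Ifng* value of section 2 rests on 8 UMIs. Tumor over neural tissue, *Ifng* was 3.42-fold in section 1 and 0.389-fold in section 2, and *Cd4* 10.2-fold and 0.73-fold. Neither gene was called in that comparison (adjusted p = 0.48 and 0.17, edgeR). The peptide exchange regulators *H2-Oa* and *H2-Ob*, chains of DO, had 17.8 and 25.9 CPM in the tumor of section 1 and 1.95 and 1.53 in that of section 2. In section 2 both were lower in the tumor than in neural tissue, at 0.444 and 0.558 times its level.

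*Ctsl* and *Ctss*, the cathepsins of the lysosomal genes, had their highest levels in an edge. Edge against neural tissue, 5 of the 30 genes were called higher and 0 lower: *Ctsl*, *Nfya*, *Irf1*, *Cd40* and *Cd80*. Over all genes 6.02% were called higher and 10.1% lower there, and 2.81% and 7.56% in tumor against edge. *Ctsl*, a protease that cuts the invariant chain in some cells, was at 2.21 (SE 0.32, adjusted p = 0.0048, edgeR), and it was the only gene of the list called lower in tumor against edge (-1.29, SE 0.31, adjusted p = 0.037, edgeR), where *Nfya* and *Irf1* were called higher. It had 2648 and 2142 CPM in the inner edge of sections 1 and 2 and 602 and 546 in the tumor. *Ctss*, the main protease for the invariant chain in myeloid cells and B cells, had 2256 and 1255 CPM in the inner edge and 2064 and 436 in the tumor, with a log2 fold change of 2.11 for edge against neural tissue (adjusted p = 0.084, edgeR). Inner against outer edge, 0 of the 30 were called by edgeR and 3 had an unadjusted p below 0.05.

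Genes whose level varied most like the summed members over all spots were ranked by the lower Pearson's r of the 2 sections, among 11966 genes found in at least 10% of spots of each section. The members, the pathway and marker lists and *Arg1* were compared too but left out of the ranking. The 10 at the top were *Cd52* (r of 0.86 in section 1 and 0.58 in section 2), *Arpc1b* (0.83 and 0.57), *Igfbp7* (0.74 and 0.57), *B2m* (0.85 and 0.56), *Ifitm3* (0.84 and 0.56), *Fn1* (0.87 and 0.56), *Grn* (0.76 and 0.56), *Tspo* (0.79 and 0.56), *Fcer1g* (0.82 and 0.55) and *Ctsh* (0.72 and 0.55). *B2m* encodes the light chain of MHC class I, and *Fcer1g* an adaptor of immune receptors. Each section has its own top genes outside these lists, led by *S100a4* (0.89) in section 1 and by *Cd52* in section 2. In section 1 *Col6a1* and *Postn* of the matrix also reached 0.87 and 0.86. Of the fibroblast markers, left out of the ranking, *Col1a1*, *Col1a2* and *Col3a1* each had 0.89 in section 1. In section 2 they had 0.41, 0.36 and 0.38. These values span the regions, which differ in depth and in the level of most genes. Of the pathway list, *Ctss* was nearest, at 0.78 and 0.52, and of the macrophage markers *Cd68*, at 0.71 and 0.53.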

How the data were processed

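The authors deposited raw UMI counts per gene and spot for 2 Visium CytAssist sections of formalin-fixed tissue, made with Space Ranger 2.1.1 on mm10 per the labels. The deposited counts were used as given. Probes read a short part of each transcript, so levels were not compared between genes. Regions were rebuilt from 22 neural markers, since no deposited annotation of spots was used. Kept spots had at least 500 UMIs and 10 genes, their score was averaged over up to 6 neighbors and split by Otsu's threshold, and connected groups under 50 spots were left unassigned (46 and 125 spots). Each section had a second tumor-side group, of 93 and 113 spots, which stayed in. That of section 1 was shallow, with a median of 2219 UMIs, and supplied 86 inner edge spots.

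UMIs were summed per section and region, since spots are not replicates, and tested with edgeR 4.0.16 (quasi-likelihood, TMM factors of 0.849 to 1.314, filterByExpr, R 4.3.3) with the section as a block and 3 residual degrees of freedom. The block pairs regions of 1 mouse, and the common dispersion was 0.0937 with it and 0.16 without. The p-values rest on how far the differences between regions disagree between only 2 sections. The spread of each gene was drawn toward that of all genes (median prior degrees of freedom 5.1). Regions of a section share its slide and library. DESeq2 1.42.0 was an alternative. The scripts were tested on simulated data. Those for the edgeR fit had less spread than these data and no difference between sections, so they do not show how the fit behaves here. Confidence intervals are 95% exact Poisson or binomial and cover counting error only. The gene lists were chosen with earlier results of these data known. Genes named are the 7 members, the fixed pathway and marker lists, *Arg1* and the 10 genes most like the members, and *S100a4*, *Col6a1* and *Postn* were named after their values were seen. Python 3.11.15, numpy 2.4.6, scipy 1.17.1, pandas 2.3.3 and matplotlib 3.10.9 were used.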

Additional observations from a re-analysis of the deposited data

How the results depend on the processing

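Of the 7 members, 3 were called in tumor against neural tissue, and this count was 7 with DESeq2, 1 with an edge of 2 array steps, 1 without the spots highest in lymphoid markers and 2 to 4 under the other alternatives with the section in the model. With no replicate block, which drops the pairing of regions within a mouse, it was 0, with adjusted p of 0.079 for *Cd74*, 0.13 for *H2-Aa* and 0.12 for *H2-Ab1* (edgeR), and the block changed no other count of members called. DESeq2 called 4 members in edge against neural tissue and 4 in tumor against edge, where edgeR called 0, and the cause was not tested. It also called more of all genes higher in these comparisons, 1847 and 2040 against 1145 and 534 by edgeR. Over 14 alternatives that kept both sections, 98 of 98 values had the same direction as the reported one in each of the 4 comparisons. With 1 section left out there is no test. *Cd74* then ran from 2.33 to 6.68 in tumor against neural tissue. In tumor against edge the direction reversed without section 1, with ranges of -0.34 to 3.80 for *Cd74*, -0.36 to 3.84 for *H2-Aa*, -0.70 to 3.44 for *H2-Ab1*, -0.81 to 3.61 for *H2-Eb1*, -0.41 to 2.57 for *H2-DMa*, -0.72 to 2.71 for *H2-DMb1* and -0.79 to 2.43 for *Ciita*. Inner against outer edge, *H2-Aa* ran from -0.07 to 1.70 and *Ciita* from -0.25 to 1.06. For that comparison edgeR called 0 genes of either direction, DESeq2 260 higher and 526 lower, edgeR with an edge of 5 array steps 308 and 830, with no averaging of the neural score 93 and 410, and with the threshold 20% lower 53 and 316. Scaling by library size only moved the median of all genes to -0.35 in tumor against edge. Without the shallow second group of section 1, an alternative chosen after seeing the data, 4 members were called in tumor against neural tissue, and the summed level of the inner edge of section 1 was 4660 CPM against 4439 with it. Edge regions hold the fewest UMIs, 3631794 to 4891562, and *Ciita* rests on 38 to 152 UMIs there.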
